A study of Mus musculus with 37 samples.

Results

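TRBV20, TRBV23 and TRBV30 are 3 variable (V) gene segments of the mouse T cell receptor beta locus, and they were the least used of the V segments in regular use in lymph node repertoires of 37 mice. They were chosen by that low use: each held about 1% of the reads on average, in the same libraries from which the values below come, so their low shares are a description and carry no test. They accounted for 51253 of the 1704980 clonotypes listed over the 37 libraries (3.01%) and for 1383014 of the 47131913 reads (2.93%). TRBV20 had 24671 clonotypes, TRBV23 had 16627 and TRBV30 had 9955, each clonotype being counted once in every library that held it. The files listed 21 V segments in all.

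During T cell development a V segment is joined to a diversity (D) and a joining (J) segment of the beta locus. The junction forms the third complementarity-determining region (CDR3), the loop that lies over the peptide, while the first and second loops are encoded in the V segment itself. Bases trimmed from the segment ends and bases added between them make CDR3 length and sequence vary from clone to clone. The locus has a pair of D-J clusters, TRBJ1 and TRBJ2, and a V segment can be joined to either. In the RefSeq gene table (assembly GRCm38.p6) the 3 segments are Trbv20, Trbv23 and Trbv30 on chromosome 6, with the older names Tcrb-V15, Tcrb-V20 and Tcrb-V18. Only the V, D, J and constant (C) genes of the locus were ordered, and genes of other kinds were left out. In that order Trbv20 lies between Trbv19 and Trbv21, and Trbv23 lies between Trbv22 and Trbv24. Trbv30 lies between Trbv29 and the gene Trbd1, which makes it the V segment nearest to the D-J clusters on their upstream side. Trbv31 follows the gene Trbc2 at the other end of the clusters.

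The libraries were amplified from genomic DNA of whole lymph node suspensions, 1 library per mouse, so the values follow rearranged DNA and say nothing of RNA, and the tissue cannot be checked against marker genes. At d105 the groups were MMTV-PyMT mice given PLX+PTX+aPD-1 and labelled R (6 mice) or NR (4 mice), MMTV-PyMT mice given PLX+PTX (6 mice) or PTX (2 mice), and FVBN mice labelled WTNT (5 mice). At d95 they were MMTV-PyMT mice labelled R (5 mice) or NR (3 mice) after PLX+PTX+aPD-1, and mice given PLX+PTX (3 mice) or PTX (3 mice). The labels do not spell out R, NR, WTNT or which lymph node was taken, and R and NR below always stand for mice given all 3 agents. MMTV-PyMT mice carry the polyoma middle T antigen under the mouse mammary tumor virus promoter, which is active in mammary epithelium, and they develop mammary tumors. PLX is PLX3397 (pexidartinib), an inhibitor of the CSF1 receptor of macrophages, fed from 80 days of age at 40 mg/kg per day. PTX was injected at 10 mg/kg every 5 days from 85 days of age, and aPD-1 is an antibody against PD-1, given at 87 days of age at 1.0 mg and then at 0.5 mg every 5 days, with an isotype antibody as its control. The protocol gives BrdU to mice before tissue collection and perfuses them with buffer.

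Depth differed by day. The 23 libraries of d105 held 1090573 to 2831566 reads, and the 14 libraries of d95 held 90648 to 917752 reads, so the days do not overlap in depth and day and depth cannot be told apart. The smallest library, d95 NR replicate 1, held 16 clonotypes of TRBV23 and 11 of TRBV30. The reads are PCR products that carry no molecular identifiers, and every interval given for 1 library is a 95% Wilson interval that covers counting error only. All libraries of a group are separate mice.

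The stretch of CDR3 that each germline V segment can supply is short in TRBV20 and TRBV30. These ends were read from the clonotypes whose V match stopped exactly at the end of the V segment, as the form found in most of them. They are shown because the CDR3 begins with what is left of the V end.

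TRBV20 end: tgtggtgctaggga
TRBV23 end: tgctccagcagtcaatc
TRBV30 end: tgtagttctagaga

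The TRBV20 and TRBV30 ends are 14 bases long and the TRBV23 end is 17 bases long. The TRBV20 form was found in 88.8% of 4606 such clonotypes, the TRBV23 form in 95.8% of 1463 and the TRBV30 form in 93.9% of 856. The clonotypes found in the most mice show how these ends are used. Each is given below by its TRBJ partner and the amino acids of its CDR3. The nucleotide form shown is the one found in more libraries than any other or as many, which need not be a majority. In the order printed, the forms shown were in 17, 16 and 17 libraries for TRBV20, in 5, 2 and 4 for TRBV23 and in 5, 11 and 4 for TRBV30. Capitals mark the bases between the end of the V match and the start of the J match, that is any D segment and any added bases. No D segment was called in the forms shown for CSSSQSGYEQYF and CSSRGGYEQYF.

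TRBV20 TRBJ2-5 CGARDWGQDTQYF: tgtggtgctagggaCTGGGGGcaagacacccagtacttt
TRBV20 TRBJ2-7 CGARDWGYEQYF: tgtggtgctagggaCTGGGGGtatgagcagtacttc
TRBV20 TRBJ2-7 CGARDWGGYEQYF: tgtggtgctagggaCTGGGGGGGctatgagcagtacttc
TRBV23 TRBJ2-7 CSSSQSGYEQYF: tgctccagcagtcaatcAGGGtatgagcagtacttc
TRBV23 TRBJ2-5 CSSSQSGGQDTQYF: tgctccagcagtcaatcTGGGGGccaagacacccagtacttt
TRBV23 TRBJ2-7 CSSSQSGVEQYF: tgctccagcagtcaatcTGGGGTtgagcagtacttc
TRBV30 TRBJ2-5 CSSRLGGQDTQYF: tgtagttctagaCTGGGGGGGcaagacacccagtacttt
TRBV30 TRBJ2-7 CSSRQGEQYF: tgtagttctagaCAGGGtgagcagtacttc
TRBV30 TRBJ2-7 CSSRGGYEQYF: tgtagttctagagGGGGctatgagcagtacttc

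In the 3 TRBV20 forms the V match reaches the end of the V segment and is followed by a stretch matched to TRBD2. Where V stops and D starts is as called in the deposited alignment. Whether the last bases of the V match came from V or D was not tested. Each of these 3 clonotypes was found in 25 of 37 libraries, in 9, 13 and 15 nucleotide forms. In the 3 TRBV23 forms the V match also reaches the end of the segment, and their clonotypes were found in 13, 12 and 9 libraries. The TRBV30 clonotypes were found in 14, 13 and 12 libraries, and the forms shown have a trimmed V end.

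By share of reads TRBV23 was the highest of the 3 on average. TRBV23 averaged 1.05% ± 0.262 of reads, TRBV30 averaged 0.789% ± 0.186 and TRBV20 averaged 0.777% ± 0.429 (SD, n = 37 libraries each). TRBV30 and TRBV20 differ by less than their spread, and their order went opposite ways on the 2 days, with TRBV20 above TRBV30 in 20 of 23 libraries of d105 and in 3 of 14 libraries of d95. The nearest segment above them was TRBV26 at 6.17%, and the nearest below was TRBV13-2 at 0.0946%, so no segment lay close to the 3 on either side. All 3 were below every other regularly used V segment in 37 of 37 libraries.

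Counting each clonotype once put TRBV20 first and left TRBV23 above TRBV30. TRBV20 averaged 1.34% ± 0.357 of clonotypes, TRBV23 averaged 0.931% ± 0.135 and TRBV30 averaged 0.574% ± 0.060 (SD, n = 37 each). TRBV23 was above TRBV30 in 37 of 37 libraries, and TRBV20 was above TRBV23 in 32 of 37. By reads TRBV20 was above TRBV23 in 9 of 37 libraries. On the deposited normalized clone count, a score in which every V-J pair is multiplied by its own factor, TRBV20 held 1.68% ± 0.852 of the total, against 0.471% ± 0.080 for TRBV23 and 0.467% ± 0.099 for TRBV30. The rank of TRBV20 among the 21 V segments was therefore 12 by reads and 10 by clonotypes or by normalized clone count.

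**Figure D1:**
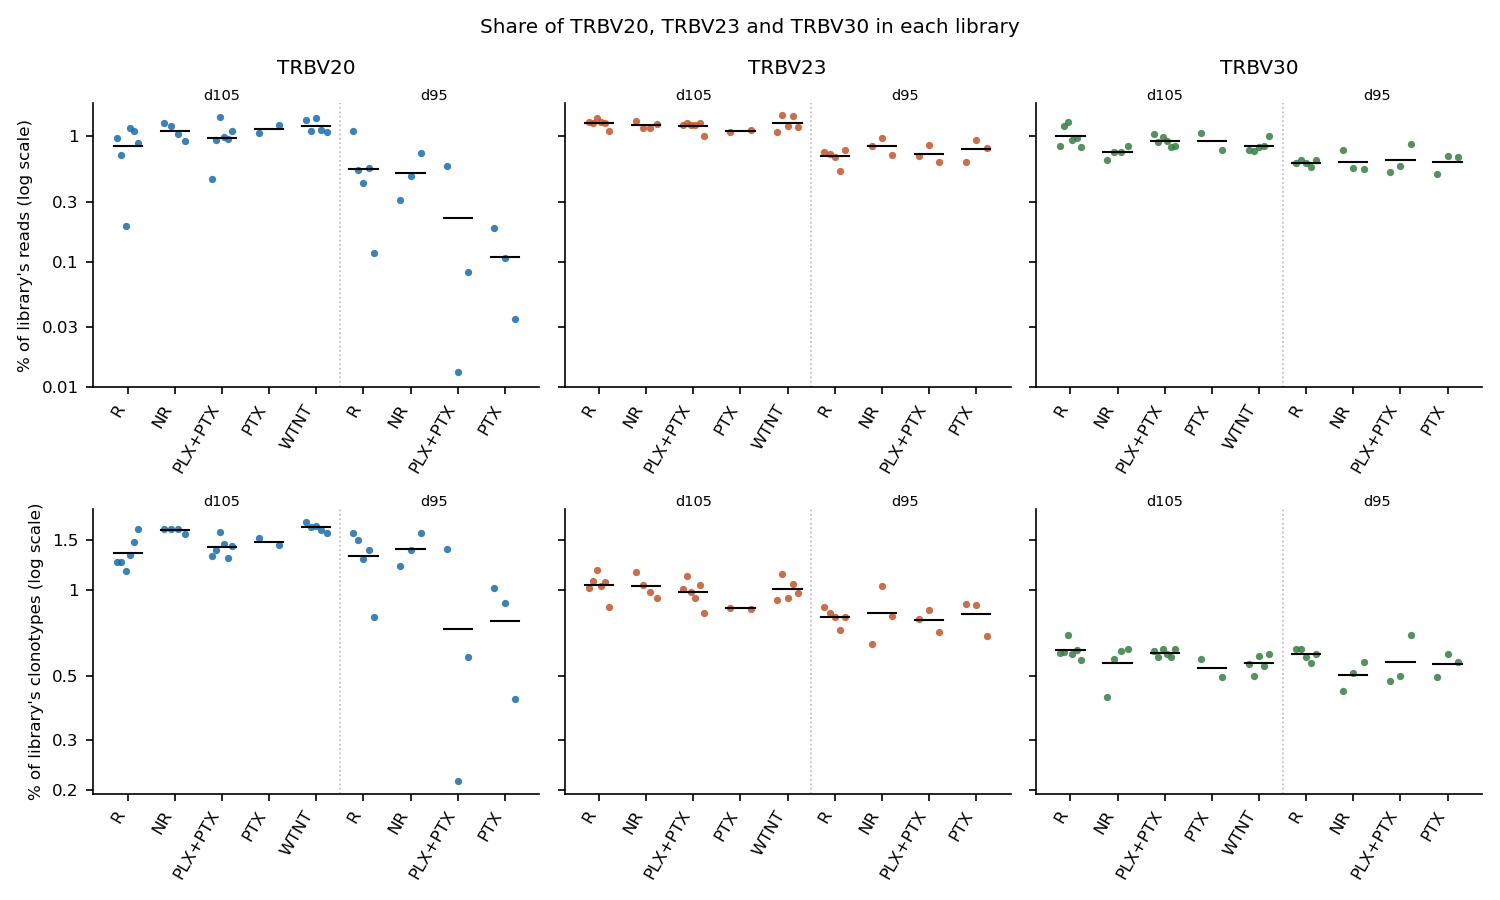
Percent of a library's reads (top) and of its clonotypes counted once (bottom) for TRBV20, TRBV23 and TRBV30, on log axes. Each point is 1 library, black bars are group means, and R and NR are mice given PLX+PTX+aPD-1. TRBV20 spans 0.0133% to 1.41% of reads, with its lowest libraries at d95, while TRBV23 spans 0.529% to 1.45% and TRBV30 0.498% to 1.29%.

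TRBV20 was the most variable of the 3. Its share of reads ranged 107-fold over the 37 libraries, or 40.2-fold without d95 PLX+PTX replicate 2, against 2.75-fold for TRBV23 and 2.59-fold for TRBV30. At d105, R libraries held 0.192%, 0.917% and 1.17% (lowest, median and highest of 6), NR libraries held 1.26%, 1.19%, 1.03% and 0.906%, and PLX+PTX libraries held 0.454%, 0.961% and 1.41% (lowest, median and highest of 6). PTX libraries held 1.06% and 1.22%, and WTNT libraries held 1.33%, 1.09%, 1.39%, 1.11% and 1.08%. All groups of d105 overlapped, and R replicate 3 at 0.192% (interval 0.186% to 0.197%) and PLX+PTX replicate 1 at 0.454% stood below the rest. In R replicate 3 the share of clonotypes, 1.17%, was also the lowest of d105 and its nearest neighbour was R replicate 2 at 1.25%, against 0.709% of reads in that library.

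At d95 the TRBV20 share of reads was low and uneven. R libraries held 1.10%, 0.537%, 0.423%, 0.561% and 0.118%, NR libraries held 0.311%, 0.477% and 0.727%, PLX+PTX libraries held 0.576%, 0.0133% and 0.0827%, and PTX libraries held 0.186%, 0.107% and 0.0351%. The 3 PTX libraries, 2 of the 3 PLX+PTX libraries and R replicate 5 lay below all libraries of d105 and below the other libraries of d95. PLX+PTX replicate 2 had 46 TRBV20 reads in 27 clonotypes, and its interval ran from 0.0099% to 0.0177%. PTX replicate 3 had 101 reads in 60 clonotypes.

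The V segments whose log2 share of reads ran most closely with TRBV20 over the 37 libraries were TRBV4 (Pearson r = 0.90) and TRBV3 (r = 0.89). The points share libraries, shares of 1 library sum to a fixed total, and no p is given. Within d95 the values were 0.91 for TRBV4 and 0.97 for TRBV3, and within d105 they were 0.31 and 0.66. In the d95 library with the least TRBV20, PLX+PTX replicate 2, TRBV3 was at 3.34% and TRBV4 at 3.59%, the lowest of d95 for both, against d95 medians of 10.5% and 6.07%. In the d95 library with the most TRBV20, R replicate 1, they were at 12.8% and 7.84%, the highest of d95.

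Between treatments, TRBV20 gave the single call among the 3 members for share. Of clonotypes counted once at d105, R libraries held 1.17%, 1.29% and 1.64% TRBV20 (lowest, median and highest of 6), and NR libraries held 1.64%, 1.64%, 1.64% and 1.58%. R was lower than NR by 0.27 on the log2 scale (log2 difference -0.27 ± 0.071 SE, limma on log2(percent + 0.01), adjusted p = 0.0264 over 24 V and J segments). The groups overlapped through R replicate 6 at 1.64%, and 4.17% of the segments tested were called in this comparison, TRBV20 being that call. The mouse numbers in the labels fall into a lower and a higher block at d105, and all 4 NR mice are in the higher one. Within it, the 4 R libraries held 1.40% ± 0.202 and the 4 NR libraries 1.63% ± 0.033 (SD), a log2 difference of -0.22 with an exact permutation p of 0.0857, 2-sided, where 0.0286 is the smallest that 4 against 4 can give. Over all 6 R and 4 NR libraries the same exact permutation test, chosen after seeing the data like the one within the block, gave p = 0.0286.

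The call did not hold under several alternatives. With the number block as a covariate the log2 difference was -0.22 ± 0.071 (adjusted p = 0.191 by limma), with every library thinned to 90648 reads it was -0.43 ± 0.24 (adjusted p = 0.489), and with clonotypes of at least 10 reads it was -0.41 ± 0.18 (adjusted p = 0.213). Leaving out R replicate 1, 2, 3 or 4 or NR replicate 2 or 3 gave differences of -0.25, -0.25, -0.23, -0.27, -0.27 and -0.27 and adjusted p of 0.0729, 0.0727, 0.0710, 0.0527, 0.0869 and 0.0846 by limma. Its share of reads in the same comparison, 0.832% ± 0.353 in R and 1.10% ± 0.160 in NR (SD), did not pass.

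The other TRBV20 differences between treatments that reached an unadjusted p under 0.05 did not pass the adjustment. MMTV-PyMT libraries of d105 held 1.45% ± 0.155 of clonotypes as TRBV20 (n = 18) and WTNT libraries 1.66% ± 0.055 (SD, n = 5), a log2 difference of -0.18 ± 0.057 SE (adjusted p = 0.112 by limma, 0% of segments called). It passed without R replicate 6 (-0.20 ± 0.045, adjusted p = 0.00876), which was 1 of 23 fits that each left out 1 library. In the other 22 it did not pass, with adjusted p up to 0.285 by limma. After thinning to the smallest library it was -0.21 ± 0.19 (adjusted p = 0.650). With clonotypes of at least 10 reads it was -0.26 ± 0.14 (adjusted p = 0.312). At d95, R and NR libraries together held 0.531% ± 0.291 of reads (n = 8) and PLX+PTX libraries 0.224% ± 0.307 (SD, n = 3), a log2 difference of 2.12 ± 0.86 (adjusted p = 0.115, 0% called). Of clonotypes the same libraries held 1.34% ± 0.257 and 0.730% ± 0.601, a log2 difference of 1.23 ± 0.45 (adjusted p = 0.431, 0% called). PLX+PTX replicate 1, at 0.576%, decided both: without it the differences were 3.34 ± 0.76 (adjusted p = 0.00788) for reads, with 18 segments called in the same fit, and 1.88 ± 0.39 (adjusted p = 0.0134) for clonotypes, with 2 called. Without PLX+PTX replicate 2 they were 1.01 ± 0.82 for reads and 0.56 ± 0.38 for clonotypes.

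TRBV20 was higher at d105 than at d95. Over the MMTV-PyMT mice its share of reads was 0.971% ± 0.290 at d105 (n = 18) and 0.375% ± 0.313 at d95 (SD, n = 14), with a log2 difference of 2.12 ± 0.37 (adjusted p = 1.4e-05 by limma). Its share of clonotypes was 1.45% ± 0.155 at d105 and 1.09% ± 0.446 at d95, with a log2 difference of 0.66 ± 0.17 (adjusted p = 0.00116). The clonotype difference was 0.99 ± 0.27 (adjusted p = 0.00274 by limma) after thinning every library to the reads of the smallest. With clonotypes of at least 10 reads it was 3.52 ± 0.67 (adjusted p = 5.4e-05 by limma). Only 33 of 37 libraries had a TRBV20 clonotype of at least 10 reads, and the libraries without one were all of d95. For such a library the log2 value is that of the added constant alone, so the size of 3.52 depends on that constant. In this comparison of days 75% of segments were called by reads and 87.5% by clonotypes, so a call is the common outcome here, and depth differs with the day.

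TRBV23 was even across the libraries of a day. At d105, R libraries held 1.10%, 1.28% and 1.39% of reads (lowest, median and highest), NR libraries held 1.32%, 1.15%, 1.15% and 1.24%, PLX+PTX libraries held 0.996%, 1.23% and 1.27%, PTX libraries held 1.08% and 1.12%, and WTNT libraries held 1.07%, 1.45%, 1.20%, 1.45% and 1.17%. At d95, R libraries held 0.741%, 0.721%, 0.675%, 0.529% and 0.780%, NR libraries held 0.837%, 0.961% and 0.706%, PLX+PTX libraries held 0.692%, 0.840% and 0.625%, and PTX libraries held 0.624%, 0.937% and 0.800%. Every library of d95 was below every library of d105. The groups of a day overlapped, except that both PTX libraries of d105 were below the 4 NR libraries of d105, a pair of groups that was not compared by a test.

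Over the MMTV-PyMT mice TRBV23 held 1.21% ± 0.097 of reads at d105 and 0.748% ± 0.121 at d95 (SD, n = 18 and 14), a log2 difference of 0.66 ± 0.064 SE (adjusted p = 1.2e-09 by limma). Of clonotypes it held 1.00% ± 0.103 at d105 and 0.813% ± 0.099 at d95, a log2 difference of 0.27 ± 0.060 (adjusted p = 0.00019). The clonotype difference was 0.10 ± 0.053 (adjusted p = 0.101) after thinning to the smallest library and 0.11 ± 0.057 (adjusted p = 0.0777) with clonotypes of at least 10 reads. None of the comparisons between treatments reached an unadjusted p under 0.05 for TRBV23. The segments whose share of reads ran most closely with it were TRBV29 and TRBV30 (r = 0.70 each over 37 libraries), but within d105 the values were 0.16 and 0.11 and within d95 they were -0.47 and 0.16.

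TRBV30, the V segment next to the D-J clusters, was the rarest by clonotypes. At d105, R libraries held 0.818%, 0.945% and 1.29% of reads (lowest, median and highest), NR libraries held 0.643%, 0.743%, 0.740% and 0.838%, PLX+PTX libraries held 0.815%, 0.900% and 1.04%, PTX libraries held 1.05% and 0.776%, and WTNT libraries held 0.770%, 0.761%, 0.811%, 0.833% and 0.992%. R libraries were mostly above NR libraries, and 1 NR library, replicate 4, lay within the range of R. The log2 difference was 0.42 ± 0.12 SE (unadjusted p = 0.00325, adjusted p = 0.0685 by limma, 0% of 25 segments called), which does not pass the threshold. By the same test the difference passed without R replicate 1 (0.47, adjusted p = 0.0375), without R replicate 5 (0.43, adjusted p = 0.0414), without R replicate 6 (0.47, adjusted p = 0.0160) and with clonotypes of at least 10 reads (0.42, adjusted p = 0.0406). By limma, the difference in reads did not pass in the other 7 of 10 fits leaving out 1 library (adjusted p up to 0.187). With the number block as a covariate it was 0.43 and did not pass (adjusted p = 0.223 by limma). On the normalized clone count it was 0.31 and did not pass (adjusted p = 0.178 by limma). It did not pass with edgeR or DESeq2 either. Of clonotypes counted once, R libraries held 0.616% ± 0.044 and NR libraries 0.559% ± 0.093 (SD), which was not called.

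Large TRBV30 clones were found in 2 of the 6 R libraries. In R replicate 5 the largest TRBV30 clonotype took 17.4% of the TRBV30 reads, in R replicate 2 it took 10.2% and in the other 4 R libraries 0.935% to 1.75%, against 0.991% to 3.16% in the 4 NR libraries. With the largest TRBV30 clonotype left out of every library, R libraries held 0.949% ± 0.191 and NR libraries 0.729% ± 0.085 (SD), a log2 difference of 0.36 with an exact permutation p of 0.0381 (2-sided, 6 against 4, chosen after seeing the data). With it kept in, the exact permutation p was 0.0286. Within the higher block of mouse numbers the differences were 0.36 and 0.41, with exact permutation p of 0.0857 and 0.0571 for 4 against 4.

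At d95, TRBV30 held 0.607%, 0.648%, 0.606%, 0.567% and 0.645% of reads in R libraries, 0.768%, 0.554% and 0.544% in NR libraries, 0.513%, 0.573% and 0.856% in PLX+PTX libraries, and 0.498%, 0.687% and 0.678% in PTX libraries. The groups overlapped, and none of the comparisons of d95 reached an unadjusted p under 0.05 for it. Between days it held 0.905% ± 0.164 of reads at d105 and 0.624% ± 0.099 at d95 in MMTV-PyMT mice (SD, n = 18 and 14), a log2 difference of 0.50 ± 0.083 (adjusted p = 8.5e-06 by limma). On the normalized clone count this difference turned to -0.12 ± 0.11 (adjusted p = 0.319), and on the nb clone count, the other deposited score, it was 0.13 ± 0.10 (adjusted p = 0.242). By clonotypes TRBV30 held 0.590% ± 0.057 at d105 and 0.560% ± 0.068 at d95, a log2 difference of 0.06 ± 0.056 with an interval of 2 SE from -0.05 to 0.17 (adjusted p = 0.268). It was thus not called, where 87.5% of segments were. The V segments nearest to it in share of reads were TRBV23 (r = 0.70) and TRBV29 (r = 0.64) over 37 libraries. Within d105 the values were 0.11 and 0.35, and within d95 they were 0.16 and -0.22.

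Over the 7 comparisons within a day, the 3 members gave 21 differences in share of reads and 21 in share of clonotypes. Of these, 19 and 18 had an unadjusted p of 0.05 or more, with log2 differences from -0.58 to 0.12 for reads and from -0.37 to 0.24 for clonotypes. In the background, limma called 0% of 25 segments by reads for R and NR against PLX+PTX at d105, 8% for PLX+PTX against PTX at d105, 0% for MMTV-PyMT against WTNT, and 0% of 24 segments in each comparison of d95. By clonotypes it called 0% in each comparison other than R against NR at d105 and the days. For R against NR at d105 by reads, 4 segments had an unadjusted p under 0.05 and 0 passed, and edgeR and DESeq2 passed 0 as well.

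The size of clones of each segment was described by its relative clone size, the percent of reads over the percent of clonotypes in a library, where 1 means that its clonotypes hold as many reads as the library's average clonotype. Share of reads enters this measure and was also what chose the segments, so the comparison with the other V segments is given without a test. Relative clone size averaged 0.528 ± 0.255 for TRBV20, 1.11 ± 0.183 for TRBV23 and 1.37 ± 0.271 for TRBV30 (SD, n = 37). TRBV20 was below the pooled other V segments in 37 of 37 libraries, TRBV23 was above them in 26 and TRBV30 in 34. On the log2 scale the mean differences from the other V segments were -1.19 ± 1.04 for TRBV20, 0.13 ± 0.264 for TRBV23 and 0.42 ± 0.293 for TRBV30 (SD). For TRBV23 the sign differed by day, at 0.29 in d105 libraries and -0.14 in d95 libraries. TRBV20 was at -0.63 and -2.12, and TRBV30 at 0.60 and 0.14, on the same days.

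These orders rest on the unit. With the normalized clone count in place of reads, the log2 differences from the other V segments were 0.01 ± 0.869 for TRBV20, -0.99 ± 0.178 for TRBV23 and -0.32 ± 0.252 for TRBV30 (SD, n = 37), so TRBV23 and TRBV30 changed sign and TRBV20 was close to the others on average. The factors behind that score differ between partners of 1 segment. For TRBV20 they ran from 2.48 with TRBJ1-2 to 4.88 with TRBJ2-7, over the 7 pairs with enough reads to read them. For TRBV23 they ran from 0.344 with TRBJ2-1 to 3.45 with TRBJ2-7, and for TRBV30 from 0.244 with TRBJ1-2 to 2.54 with TRBJ2-7. The authors' derivation of these factors is not given in the sources used here.

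**Figure D2:**
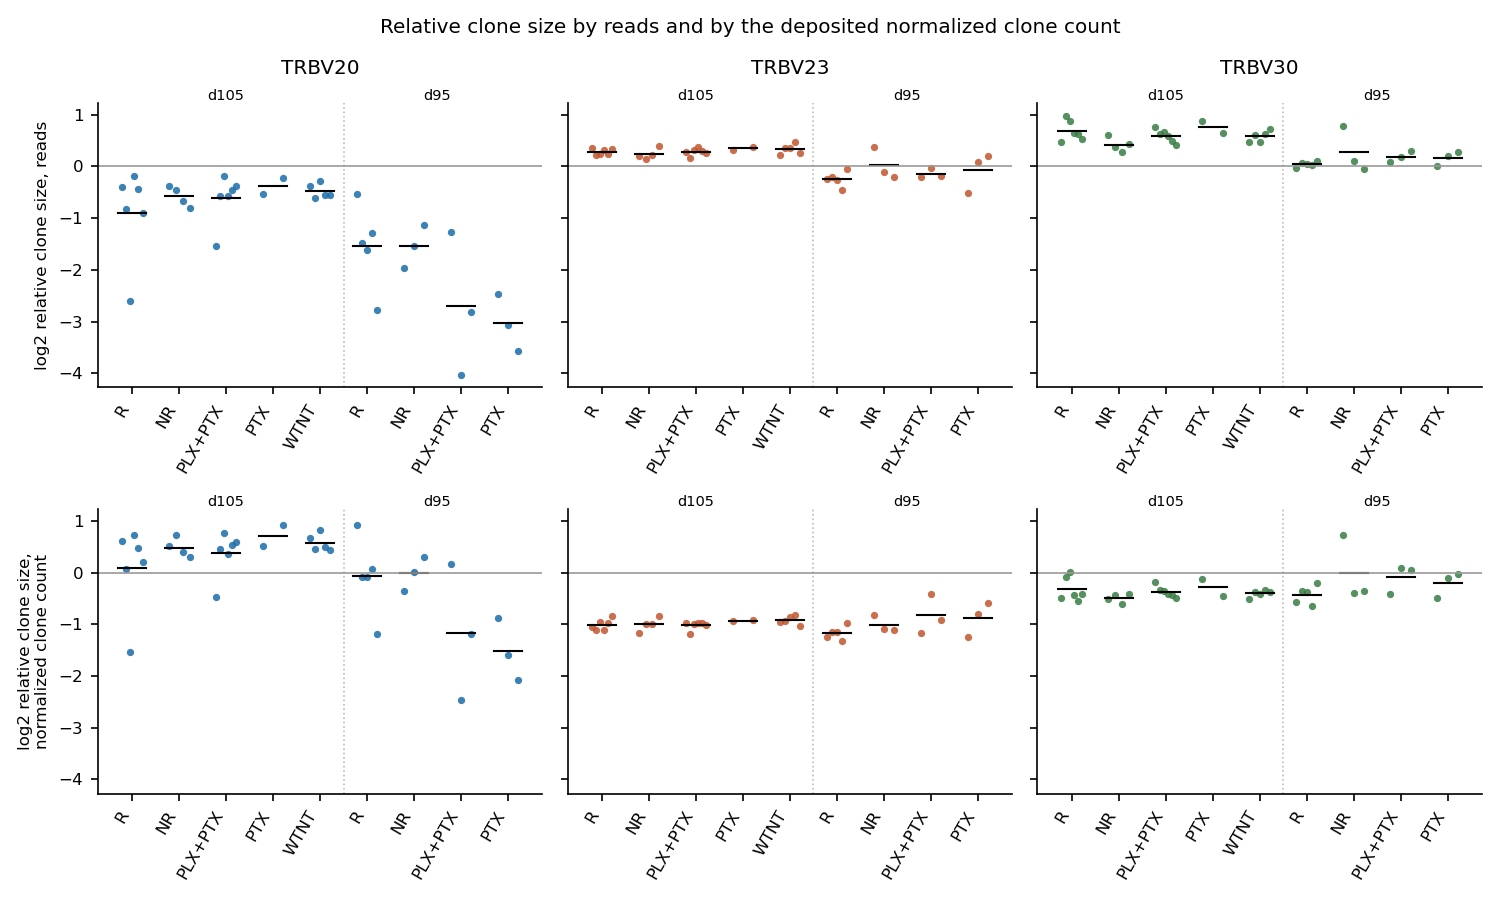
Log2 relative clone size of each segment by library, from reads (top) and from the deposited normalized clone count (bottom). Points are libraries, black bars are group means, and the grey line at 0 is the library's average clonotype. TRBV20 lies below 0 in every library by reads, with d95 libraries lowest, and the mean difference of TRBV23 from the other V segments is 0.13 by reads and -0.99 by normalized clone count.

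Across groups, relative clone size of TRBV20 at d95 was 0.386 ± 0.197 in R, 0.352 ± 0.1003 in NR, 0.206 ± 0.185 in PLX+PTX and 0.128 ± 0.049 in PTX (SD, n = 5, 3, 3 and 3). The F test over the 4 groups had an adjusted p of 0.196 by limma, with 0% of 10 V segments called. Without PLX+PTX replicate 1 the adjusted p was 0.0152, with 4 V segments called. At d105 the F test called 16.7% of 12 V segments and none of the 3 members. Between days the log2 relative clone size of TRBV20 was higher at d105 by 1.59 ± 0.26 (adjusted p = 8.4e-06 by limma), where 60% of 10 V segments were called. TRBV23 and TRBV30 had too few clonotypes in d95 NR replicate 1 to enter that fit, and without this library they were higher at d105 by 0.44 ± 0.056 and 0.51 ± 0.054 (adjusted p = 1.2e-07 and 6.3e-09, with 66.7% of 12 V segments called).

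The spread of reads over clonotypes differed in shape between the 3. At d105, clonotypes of 1 or 2 reads made up 41.6% ± 5.97 of TRBV23 clonotypes, 30.6% ± 3.78 of TRBV30 clonotypes and 13.2% ± 2.42 of TRBV20 clonotypes, against 25.2% ± 1.73 of the clonotypes of other V segments (SD, n = 23). In the same libraries clonotypes of more than 50 reads made up 28.3% ± 5.10 of TRBV23, 35.9% ± 8.97 of TRBV30 and 4.18% ± 8.89 of TRBV20, against 20.2% ± 12.2 for other V segments. In R replicate 3 of d105 the median TRBV23 clonotype had 1 read and the mean had 62.8. At d95 the shares of clonotypes with 1 or 2 reads were 24.4% ± 6.19 for TRBV23, 17.2% ± 6.70 for TRBV30 and 30.3% ± 27.2 for TRBV20, against 23.8% ± 2.25 for other V segments (SD, n = 14). TRBV20 there ran from 6.67% to 85.2%, the highest value being PLX+PTX replicate 2.

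A clonotype of 1 or 2 reads can differ by 1 base from a clonotype of at least 10 reads with the same V, J and length in its library. Over all libraries this held for 10.5% of 6546 such TRBV23 clonotypes, 20.2% of 2836 TRBV30 clonotypes and 31.9% of 3515 TRBV20 clonotypes, against 21.6% of 411539 in other V segments, pooled over all mice. At d105 alone the values were 9.78% for TRBV23, 17.9% for TRBV30 and 35.2% for TRBV20, against 21.97% for other V segments. At d95 alone they were 18.4% for TRBV23, 39.9% for TRBV30 and 16.1% for TRBV20, against 19.5%. TRBV30 thus lay below the other V segments at d105 and above them at d95. The TRBV20 values of the 2 days are not alike. A library without a TRBV20 clonotype of at least 10 reads cannot give such a match, and 33 of 37 libraries had one. At d95 the TRBV20 matches were 0 in R replicate 5, NR replicate 1, PLX+PTX replicates 2 and 3 and PTX replicates 1, 2 and 3. These pooled counts carry no test.

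**Figure D3:**
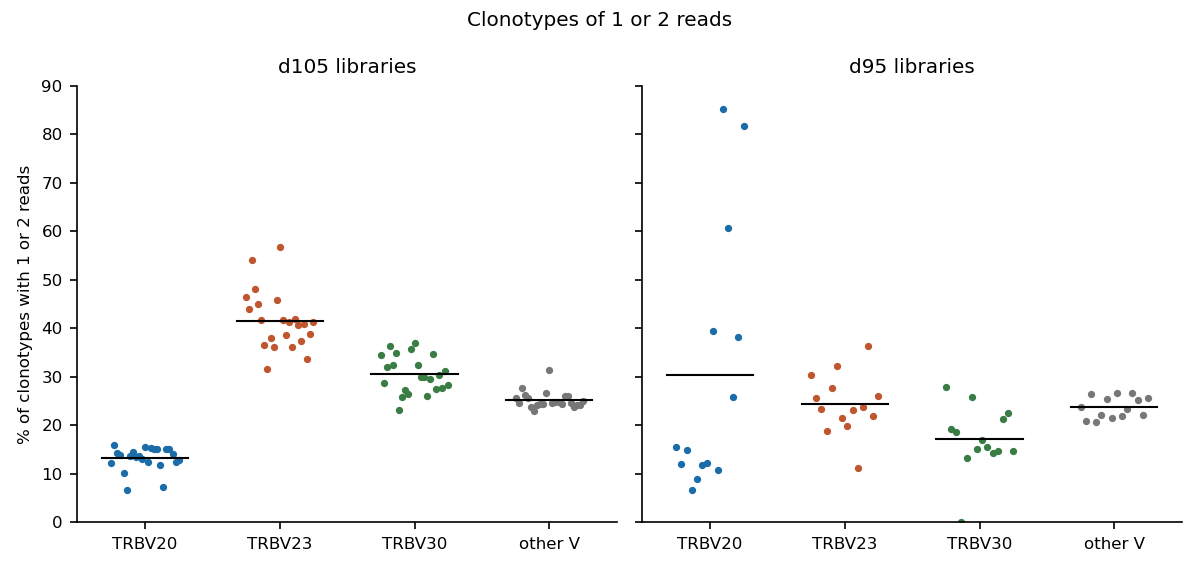
Percent of the clonotypes of each segment that had 1 or 2 reads, in the 23 libraries of d105 and the 14 of d95. Points are libraries and black bars are means. At d105 TRBV23 averages 41.6% and TRBV20 13.2%, against 25.2% for the other V segments, and at d95 TRBV20 spreads from 6.67% to 85.2%.

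CDR3 length was not used to choose the segments and was compared within libraries. The mean CDR3 of TRBV20 was 13.0 ± 0.130 amino acids long, that of TRBV23 was 13.9 ± 0.128 and that of TRBV30 was 13.1 ± 0.118, against 14.1 ± 0.055 for all other V segments of the same libraries (SD, n = 37, each clonotype counted once). TRBV20 was shorter by 1.02 ± 0.099 amino acids and TRBV30 by 1.01 ± 0.112, each in 37 of 37 libraries (2-sided sign-flip permutation test over libraries, p = 1e-05, the smallest that 100000 resamples can give, and adjusted p = 1.1e-05 over 9 tests). TRBV23 was shorter by 0.202 ± 0.125 in 35 of 37 libraries (permutation test, adjusted p = 1.1e-05). That reference is a pool, and TRBV23 at 13.86 was not shorter than each regularly used V segment. TRBV29 (13.63), TRBV26 (13.67), TRBV4 (13.75) and TRBV19 (13.80) had shorter means. TRBV3 (13.89), TRBV24 (14.15), TRBV1 (14.16), TRBV2 (14.38) and TRBV5 (14.52) had longer ones. The means of TRBV20 and TRBV30 were below all of these. Weighted by reads, the TRBV23 difference was 0.035 with an adjusted p of 0.0918 (permutation test), so for TRBV23 the shorter mean rests on counting each clonotype once. Weighted by reads TRBV20 and TRBV30 remained shorter, by 0.892 and 0.799.

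The most common length was 13 amino acids in TRBV20 (33.9% of clonotypes) and TRBV30 (31.2%), and 14 in TRBV23 (29.6%) and the other V segments (30.3%). Clonotypes under 12 amino acids made up 11.4% of TRBV20, 13.5% of TRBV30 and 4.89% of TRBV23, against 3.66% of the other V segments (means over 37 libraries). Clonotypes over 15 amino acids made up 3.17%, 3.62% and 10.7%, against 13.0%.

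**Figure D4:**
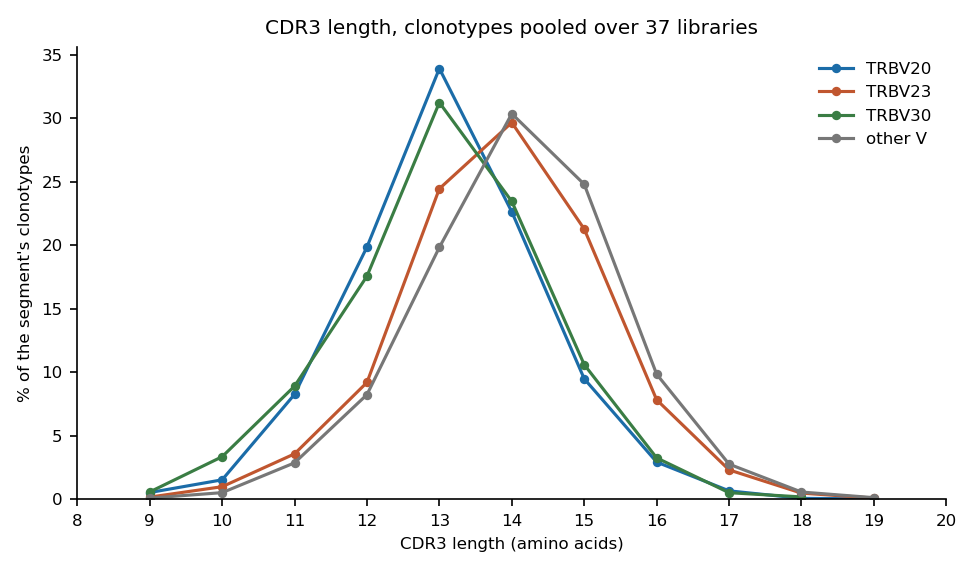
Percent of the clonotypes of TRBV20, TRBV23, TRBV30 and all other V segments at each CDR3 length in amino acids, pooled over 37 libraries. TRBV20 and TRBV30 peak at 13 amino acids, and TRBV23 peaks at 14 with the other V segments.

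The parts of the junction were measured in bases, as means over 37 libraries. The V segment supplied 12.2 bases of the CDR3 in TRBV20 and 11.4 in TRBV30, against 14.2 in the other V segments, while TRBV23 supplied 14.0. Single regularly used V segments among the others ran from 12.4 bases in TRBV4, close to TRBV20, to 15.7 in TRBV5. The J part was 18.2 bases long in TRBV20 and 17.6 in TRBV23, against 17.99 in the other V segments. Between V and J lay 8.78 bases in TRBV20, 9.93 in TRBV23 and 9.76 in TRBV30, against 10.0. Here single regularly used V segments among the others ran from 8.83 bases in TRBV26, close to TRBV20, to 10.8 in TRBV4. The V match reached or passed the germline V end in 32.8% of TRBV20 clonotypes, 19.4% of TRBV23 and 16.1% of TRBV30, against 18.8% of the others. Among the others, single V segments ran from 0.814% in TRBV4 to 43.7% in TRBV5. This is a wider set than the clonotypes from which the V ends above were read, whose match stopped exactly at the end. Of the clonotypes with a D match, 41.2% matched TRBD1 in TRBV20, 55.7% in TRBV23 and 54.3% in TRBV30, against 54.4% in the others. TRBV20 had the fewest bases between V and J of the 3 and the lowest share of TRBD1, and the 3 widely found TRBV20 clonotypes printed above hold 7, 7 and 9 such bases.

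Between groups, the mean CDR3 length of TRBV23 at d105 was 13.9 ± 0.093 in R, 13.8 ± 0.026 in NR, 13.9 ± 0.050 in PLX+PTX, 14.0 ± 0.019 in PTX and 13.8 ± 0.066 in WTNT (SD). The F test over the 5 groups had an unadjusted p of 0.0253 and an adjusted p of 0.152 by limma, and 0% of 12 V segments were called. At d95 it called 0% of 10. TRBV20 CDR3 was longer at d105 than at d95 by 0.160 ± 0.037 amino acids (adjusted p = 1.3e-04), where 100% of the 10 V segments tested were longer at d105. Without d95 NR replicate 1, TRBV23 was longer at d105 by 0.134 ± 0.040 (adjusted p = 0.00278) and TRBV30 by 0.105 ± 0.037 (adjusted p = 0.0084), again with 100% of 12 called.

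All 3 segments were joined to TRBJ2 more often than the other V segments taken as a pool. Single V segments of that pool were not compared for TRBJ2 use. TRBJ2 was the partner in 84.1% ± 5.13 of TRBV20 clonotypes, 88.1% ± 2.51 of TRBV23 clonotypes and 91.0% ± 2.20 of TRBV30 clonotypes, against 77.7% ± 1.02 of the clonotypes of other V segments (SD, n = 37). The differences were 6.40 ± 4.88 percentage points for TRBV20 in 35 of 37 libraries, 10.4 ± 2.88 for TRBV23 in 37 of 37 and 13.4 ± 2.65 for TRBV30 in 37 of 37 (sign-flip permutation test, adjusted p = 1.1e-05 each). They kept their direction with clonotypes weighted by reads, with clonotypes of at least 10 reads, and in the libraries of either day alone.

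Single partners differed among the 3. TRBJ2-7 was the most used by each, at 24.0% ± 3.70 in TRBV20, 23.3% ± 3.02 in TRBV23 and 23.7% ± 4.93 in TRBV30, against 22.2% ± 0.920 in the other V segments. Next in TRBV20 came TRBJ2-1 (15.4% ± 1.77) and TRBJ2-5 (14.98% ± 1.81), in TRBV23 TRBJ2-5 (20.2% ± 3.27) and TRBJ2-1 (14.3% ± 2.30), and in TRBV30 TRBJ2-1 (19.4% ± 4.55) and TRBJ2-5 (17.8% ± 3.17). In the other V segments TRBJ2-5 was at 13.98% ± 0.891 and TRBJ2-1 at 12.7% ± 0.452. TRBJ1-1 was at 1.77% ± 1.17 in TRBV30, 5.20% ± 1.56 in TRBV23 and 4.49% ± 1.36 in TRBV20, against 7.43% ± 0.558, and TRBJ1-3 was at 0.192% ± 0.254 in TRBV23, against 2.54% ± 0.127. These single partners were described and not tested against the other V segments.

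**Figure D5:**
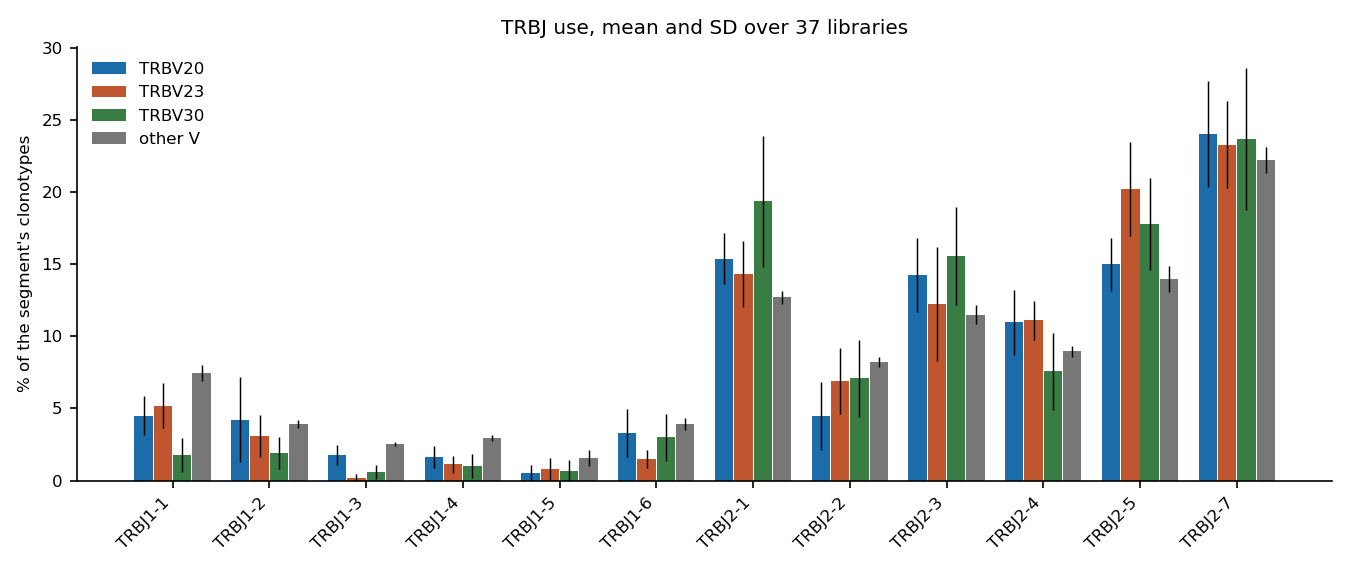
Percent of the clonotypes of each segment that used each TRBJ, as means over 37 libraries with SD as error bars, each bar group running TRBV20, TRBV23, TRBV30, other V. Bars of the 3 segments are below the other V segments at TRBJ1-1, TRBJ1-3, TRBJ1-4 and TRBJ1-5, and TRBV30 is highest at TRBJ2-1 and TRBV23 at TRBJ2-5.

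Across groups, the limma F tests on J pairing at d105 called 0.694% of 144 V-J pairs, and the call was TRBV30 with TRBJ1-4 (F = 10.0, adjusted p = 0.0180). This pair was found in 0 of 244 and 0 of 118 TRBV30 clonotypes in the 2 PTX libraries. These counts allow a share of up to 1.23% in replicate 1 and 2.54% in replicate 2. Pooled as 0 of 362 the limit is 0.829%, but pooling treats the clonotypes of 2 mice as 1 sample. In the other groups the pair took 1.19% ± 0.339 of TRBV30 clonotypes in R, 1.19% ± 0.487 in NR, 1.14% ± 0.344 in PLX+PTX and 1.27% ± 0.488 in WTNT (SD), that is 2 to 9 clonotypes per library. Without PTX replicate 1 or replicate 2 the adjusted p was 0.159 and 0.278, and with percent of reads in place of clonotypes it was 0.666, by the same test. At d95 0% of 120 pairs were called.

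Between days 55% of 120 pairs were called, among them 3 of the 12 TRBV20 pairs, while the pairs of TRBV23 and TRBV30 could not enter this fit. TRBJ2-2 was used by 5.78% ± 1.43 of TRBV20 clonotypes over all d105 libraries and 2.33% ± 1.99 over d95 libraries (SD, n = 23 and 14), a log2 difference in MMTV-PyMT mice of 1.34 ± 0.19 (adjusted p = 7.3e-07 by limma). In the other V segments TRBJ2-2 was at 8.06% ± 0.235 at d105 and 8.54% ± 0.306 at d95. TRBJ1-5 was higher at d105 by 0.48 ± 0.18 (adjusted p = 0.0233) and TRBJ1-6 lower, with a log2 difference of -0.44 ± 0.16 (adjusted p = 0.0201). The last 2 calls were lost without d105 PTX replicate 2 (adjusted p = 0.142 and 0.0514) or without d95 NR replicate 1 (adjusted p = 0.0635 and 0.0581). Without that last library the pairs of TRBV23 and TRBV30 were tested too, with 59 of 144 pairs called (41%). Of their 24 pairs TRBV30 with TRBJ1-5 passed, higher at d105 by 0.57 ± 0.18 on the log2 scale (adjusted p = 0.0121 by limma). The pair was held by 82 clonotypes over the 23 libraries of d105 and by 5 over the 14 libraries of d95. These counts are not shares, as all V segments together had 1435644 clonotypes at d105 and 269336 at d95. They also include the WTNT mice and d95 NR replicate 1, which were not in this fit.

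Most clonotypes of the 3 segments were found in 1 mouse. Merged by V, J and amino acid CDR3, 84.9% of 17411 TRBV20 clonotypes, 90.4% of 14180 TRBV23 clonotypes and 90.8% of 8332 TRBV30 clonotypes were found in 1 library, against 79.9% of 962135 clonotypes of other V segments. In 19 or more libraries were 11 TRBV20 clonotypes (0.0632%), 0 TRBV23 clonotypes and 0 TRBV30 clonotypes, against 2543 of other V segments (0.264%). These counts carry no test. Among single V segments, TRBV29 with 76425 clonotypes had 83.9% in 1 library and 0.0589% in 19 or more, the lowest such share of the other regularly used V segments.

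The TRBV20 clonotype with TRBJ2-5 printed above reached 0.0123% of reads in R replicate 5 of d105, its highest value. With 228 reads it was the largest TRBV20 clonotype of that library, whose clonotypes had 30.01 reads on average. It averaged 0.00260% over 37 libraries with absent libraries at 0. The largest clonotype of each segment was found in 1 or 2 libraries.

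TRBV20 TRBJ1-2 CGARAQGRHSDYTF: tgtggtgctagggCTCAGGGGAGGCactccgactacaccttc
TRBV23 TRBJ2-1 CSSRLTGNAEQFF: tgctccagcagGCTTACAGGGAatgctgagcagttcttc
TRBV30 TRBJ1-2 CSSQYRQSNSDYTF: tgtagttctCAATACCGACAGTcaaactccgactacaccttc

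They are printed to set them beside the shared forms, and capitals again mark the bases between V and J. The TRBV30 clonotype took 0.167% of the reads of R replicate 5 at d105 (3086 reads, interval 0.161% to 0.173%), which is 17.4% of the TRBV30 reads of that library. The largest TRBV20 and TRBV23 clonotypes by share were both in d95 NR replicate 1, the smallest library, at 19 reads (0.0210%, interval 0.0134% to 0.0327%) and 91 reads (0.1004%, interval 0.0818% to 0.123%). In these 3 the V end was trimmed.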

How the data were processed

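TCR beta libraries from lymph node DNA of 37 mice were analysed. The deposited clone count is the count of reads per clonotype, per the file headers. Beside it the authors deposited a pair of scores, a normalized and an nb clone count, each the read count times 1 factor per V-J pair, as checked on the files. Aligner, caller and build: not given in the sources used here. The members, lists and tests were chosen with earlier results of these data known.

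Shares of reads and of clonotypes were tested with limma 3.58.1 (R 4.3.3) on log2(percent + 0.01) for TRBV and TRBJ segments whose mean share reached 0.1%. The 23 libraries of d105 shared 1 fit, the 14 of d95 another, and the 32 MMTV-PyMT libraries a fit for the days. Groups weighed equally in a contrast, and Benjamini-Hochberg adjustment covered all segments of a comparison (threshold 0.05). CDR3 length, relative clone size and J pairing (log2(percent + 1)) were tested for V segments with at least 20 clonotypes in every library of a fit. Fold changes of low shares are understated by the added constant. A member against the rest of its library was tested by sign flips over libraries (100000 resamples). The adjustment covered 9 tests, of which the 3 of relative clone size are not reported, since share of reads enters them. Alternatives were edgeR 4.0.16, DESeq2 1.42.0, the deposited scores, other constants and filters, clonotypes of at least 10 reads, thinning, mouse number blocks and leaving out each library. In simulated shares of reads for 25 segments, 94% of log2 changes of 1.5 were found for R against NR at d105. The differences given above for that comparison are smaller than 1.5. Smaller changes in shares, and the other comparisons of shares, were not simulated.

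The 3 members are always named. A difference is named at an unadjusted p under 0.05 for shares; named clonotypes are the 3 found in most libraries per segment and the 1 with the highest share. Pairs are named when they pass the threshold.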

Additional observations from a re-analysis of the deposited data

Results flagged for a closer look

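Within each group of 4 to 10 libraries, the highest and the lowest library were set against the others for 5 measures of the 3 segments, 75 sets in all, and a library was singled out when its gap to the nearest other library took up most of the group's range. Chance alone singles out about 5% of such sets. There were 6. TRBV20 clonotypes in NR replicate 4 of d105 made up 1.58%, against 1.64% in each of the other 3. The TRBV20 mean CDR3 length in R replicate 3 of d105 was 12.99 amino acids, against 13.09 to 13.12 in the others, in the library with the low TRBV20 share of reads. The TRBV23 share of reads in PLX+PTX replicate 6 of d105 was 0.996%, against 1.22% to 1.27%. TRBJ2 was the partner of 80.7% of TRBV23 clonotypes in R replicate 2 of d95, against 88.0% to 90.4%. TRBV30 made up 0.699% of clonotypes in R replicate 3 of d105, against 0.570% to 0.618%, and its mean CDR3 length in R replicate 4 of d105 was 13.23 amino acids, against 13.02 to 13.09. Of 18 tests of whether an effect of treatment differed between the days, 0 passed; the smallest adjusted p by limma was 0.0543.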

How the results depend on the processing

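No paired analysis was possible because the replicate numbers follow accession order and pair no mice. CDR3 length and TRBJ2 share of a member against the rest of its library kept direction and side of the threshold in 23 of 24 alternatives, the exception being CDR3 length of TRBV23 weighted by reads (0.035). Relative clone size, given without a test, changed sign on the normalized clone count (0.0125 for TRBV20, -0.99 for TRBV23, -0.32 for TRBV30, log2) and, for TRBV23, in d95 libraries alone (-0.14, log2). The TRBV30 difference between days in share of reads turned to -0.12 on the normalized clone count. The cause of these was not tested.

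Counts of called segments moved as follows. With clonotypes of at least 10 reads, R against NR at d105 gave 2 by reads and 0 by clonotypes, and the d95 F tests gave 1 for CDR3 length and 1 for relative clone size. With the mouse number block, PLX+PTX against PTX at d105 gave 1 by reads, and R against NR gave 0 by clonotypes. On the normalized clone count, PLX+PTX against PTX gave 0 and relative clone size at d105 gave 0. Thinned to the smallest library, R against NR gave 0 and PLX+PTX against PTX 4 by clonotypes. With no filter on the mean share, PLX+PTX against PTX at d105 gave 4 and R against NR at d95 gave 1 by clonotypes. Weighted by reads, CDR3 length gave 3 between days, and percent of reads gave 0 J pairs at d105.

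Leaving out 1 library in turn, counts by reads ran from 0 to 4 for R against NR, 0 to 1 for R and NR against PLX+PTX and 0 to 2 for PLX+PTX against PTX at d105, and 0 to 18 for R and NR against PLX+PTX at d95. By clonotypes they ran from 0 to 5, 0 to 3, 0 to 1 and, for MMTV-PyMT against WTNT, 0 to 1 at d105, and 0 to 2 for R and NR against PLX+PTX at d95. CDR3 length at d95 ran from 0 to 1, relative clone size from 1 to 2 at d105 and 0 to 4 at d95, and J pairing at d105 from 0 to 2. Few libraries per group, 2 for PTX at d105, and low depth at d95 limit these comparisons.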
